A study of Drosophila melanogaster with 2 samples.

Results

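Arm 2L, the left arm of chromosome 2, carried 294 of the 1723 peaks called for the transcription factor disco in Drosophila melanogaster embryos. The peaks were chosen by their chromosome alone: every line of the deposited peak list that names 2L was taken, whatever its score. The series has 1 disco ChIP and 1 input, an aliquot of chromatin not put to the antibody, as its control, and only the ChIP's peak list was analysed. The ChIP used the antibody KW3-disco-D2 on whole untreated embryos aged 0 to 8 h, cross-linked in 1.8% formaldehyde, and its title joins ChIP replicates 1 and 2. The growth protocol names both iso1 (y; bw cn sp) and transgenic flies, without saying which gave these embryos. A collection of 0 to 8 h spans early development from the syncytial embryo onwards, and all cell types are mixed, so a peak cannot be placed in a tissue or a stage.

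The gene disco (disconnected) encodes a zinc finger protein of the nucleus. It is known from flies in which the larval visual nerve fails to connect to the brain, and, with its relative disco-r, for roles in patterning the gnathal head and ventral appendages such as the leg. In ChIP-seq, DNA bound to a protein is pulled down with an antibody and sequenced, and a peak is an interval in which a peak caller found an excess of reads. On 2L coordinates count from the telomere toward the centromere.

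All positions are on Release 5 (BDGP5) and counted from 1. Each score is the authors' own value per peak. Its scale is not given in the sources used here, so scores rank and sort peaks, and no ratio of scores is given. One list stands for both replicates, so no peak has a replicate error, and differences between arms were not tested. Intervals on shares are 95% Wilson intervals, and intervals on medians are 95% binomial intervals of order statistics. Both reflect counting error alone and take each peak as independent. The read depth is unknown. Peaks are given by position only, with no gene, exon, intron or UTR and no sequence, since neither a genome nor an annotation of Release 5 was used here.

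The peaks of 2L began at 35397 with a peak of score 112.63 and ended at 22473925 with one of score 55.29. Between the first and last midpoint, 22.4 Mb apart, 2L held 13.1 peaks per Mb. This was below 3R (15.2), 3L (16.3) and 2R (18.4) and above the X (11.6). Of the 1716 peaks on the 5 large arms, 2L held 17.1% (15.4 to 19.0%). Peaks covered 522 kb of the arm, or 2.33% of that span, against 1.76% on the X and 2.76 to 3.49% on the other autosomal arms.

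A typical 2L peak had a middling score and width for this list. The median score was 68.32 (64.69 to 70.63), with quartiles of 57.69 and 86.12. On the other arms the median lay between 67.52 (3L) and 71.19 (2R). The median width was 1525 bp (1435 to 1621 bp), against 1320.5 bp on the X and 1515.5 to 1666 bp on 2R, 3L and 3R. By either median, 2L stood at place 3 of the 5 arms.

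The upper part of the score range was thin on 2L. A score above 100 was reached by 43 of its 294 peaks, which is 14.6% (11.0 to 19.1%). Over all 5 large arms the share was 18.9%. The other arms gave 17.4% (3L), 18.0% (X), 20.4% (2R) and 22.4% (3R), so 2L was the lowest. Its interval overlapped those of 3L, X and 2R and, by a narrow margin, that of 3R (18.7 to 26.6%). The upper quartile of the score, 86.12, was also the lowest of the 5 arms, the others lying between 90.53 and 96.88. Among the 100 highest scores of the large arms 2L held 12, and among the 400 highest it held 59 (14.8%, 11.6 to 18.6%). At the other end it held 23 of the 100 lowest scores (23.0%, 15.8 to 32.2%), 36 of the 200 lowest (18.0%) and 70 of the 400 lowest (17.5%), the last pair of shares being close to its 17.1% of all peaks.

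Above 150, 2L was again the lowest arm, with 2.72% of its peaks against 3.96% over the 5 large arms. It held 5 of the 50 highest scores (10%, 4.35 to 21.4%). Only above 200 was its share, 1.02%, close to the 0.99% over the 5 large arms, and this rests on 3 peaks. Arm 2L held 3 of the 17 peaks that scored above 200, as did 2R and 3L, while 3R held 7 and the X held 1. Its 3 peaks scored 508.17, 303.07 and 252.09, and took ranks 2, 6 and 7 in the whole list. No 2L peak lay between 252.09 and 185.09. Below that the scores descended in smaller steps.

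**Figure D1:**
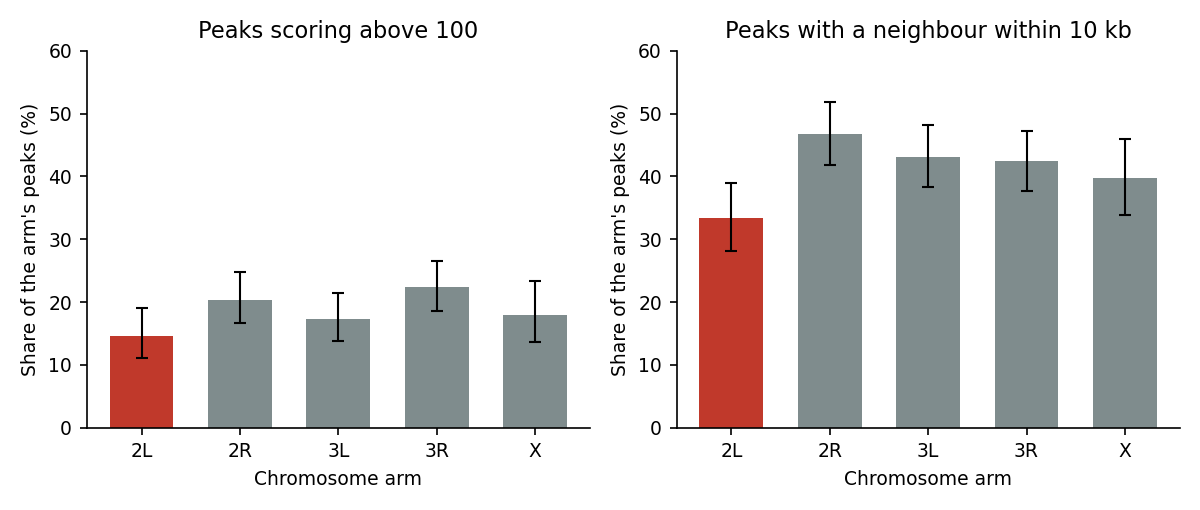
Bars give, for each large chromosome arm, the share of its peaks in percent that scored above 100 (left) and that had another peak midpoint within 10 kb (right), with error bars for 95% Wilson intervals. Arm 2L (red) was the lowest in both, at 14.6% and 33.3%.

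The highest-scoring peak of 2L lay at 6976797 to 6983514 and was also the widest of the arm, at 6718 bp. It was the largest of 4 peaks within 15.0 kb, from 6970021 to 6985044. Its lower neighbour, at 6973509 to 6975887, scored 92.89 and ended 909 bases before it. Its higher neighbour, at 6983542 to 6985044, scored 79.24 and began after a gap of only 27 bases. The outermost peak on the lower side, at 6970021 to 6971774, scored 144.36 and was itself the ninth of the arm. So a single interval of 15.0 kb held a pair of the 20 highest scores of 2L, and peaks that are nearly joined.

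The next peaks in rank did not share this crowding. The second, at 19166658 to 19171600, scored 303.07, was 4943 bp wide and stood 27.2 kb from its nearest neighbour, midpoint to midpoint. The peaks on either side scored 61.16 and 85.1. The third, at 6418897 to 6422048, scored 252.09, was 3152 bp wide and stood 31.9 kb from its nearest neighbour, with scores of 59.75 and 55.47 on either side. Of these 4 neighbours, 3 scored below the arm's median of 68.32 and the peak of 85.1 above it.

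The fourth, at 5990455 to 5994952, scored 185.09 over 4498 bp. A peak of score 62.48 at 5996917 to 5999817 lay 5.66 kb away, and on the other side a peak of score 97.21 lay 26.1 kb away. The fifth, at 19778852 to 19781675, scored 159.58, with neighbours of 68.05 and 64.18 at 26.8 and 40.1 kb. Across the 20 highest scores the nearest neighbour stood at a median of 16.0 kb, against 16.8 kb for the other 274 peaks. By this median, isolation hardly separated the high scores of 2L from the rest.

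Ranks 6 to 10 scored between 142.51 and 158.01. They lay at 14338310 to 14339637, 237836 to 242136, 21227834 to 21229966, 6970021 to 6971774 and 16657042 to 16658942. The last of these stood farthest from any other peak among the 20, with its nearest neighbour 88.5 kb away. Ranks 11 to 15 scored between 128.93 and 141.04 and lay at 6009274 to 6010817, 2979540 to 2985304, 19029209 to 19030626, 6325152 to 6329705 and 2950120 to 2951802. Ranks 16 to 20 scored between 123.7 and 128.84 and lay at 10732613 to 10736152, 6139471 to 6140744, 2456628 to 2459053, 563864 to 566171 and 6056529 to 6058600. The peak at rank 21 scored 122.33, so the limit of 20 falls within a run of close scores.

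**Figure D2:**
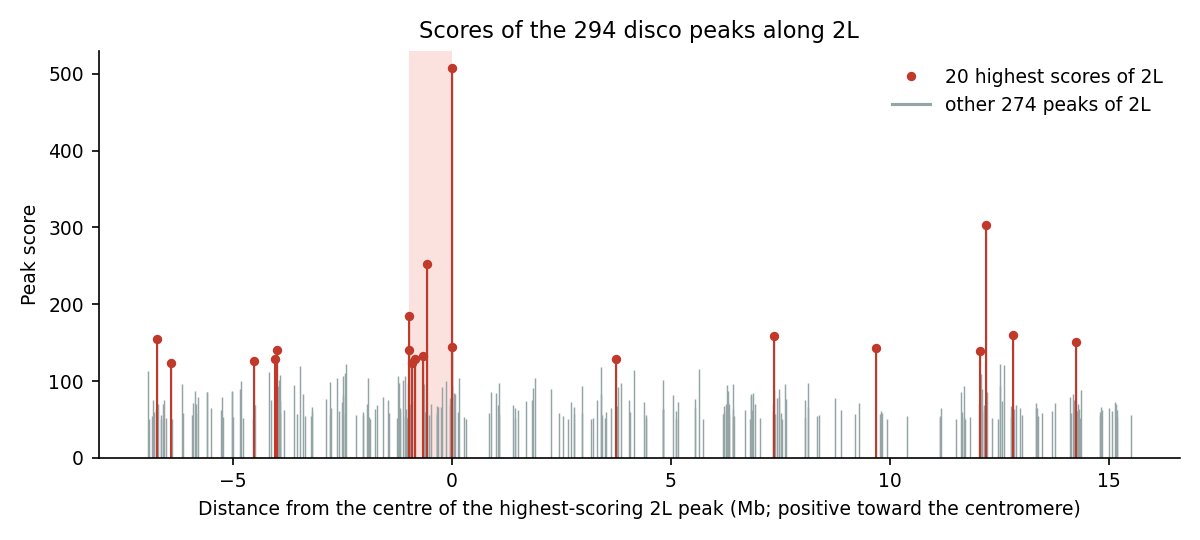
Each vertical line is 1 of the 294 peaks of 2L, at its distance in Mb from the centre of the highest-scoring peak, with its score as the height. The 20 highest scores are red, and the shaded stretch just below 0 holds 8 of them.

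The high scores of 2L were unevenly placed. Of the 20 highest, 8 lay in 993 kb, from 5990455 to 6983514. No stretch of 1 Mb on another arm held as many of that arm's own 20 highest scores: the most were 5 on 2R, 5 on 3L, 4 on 3R and 3 on the X. Within 500 kb the most on 2L was 6, against 2 or 3 on the other arms, and within 2 Mb it was 8, against 5 to 7. With the 10 highest scores of each arm the most in 1 Mb was 4 on 2L and 2 or 3 elsewhere, and with the 40 highest it was 9 on 2L and 5 to 8 elsewhere. This stretch was picked after the positions had been seen, and the difference between arms was not tested.

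The 993 kb stretch held 27 peaks, 9.18% of those on 2L, and 8 of the arm's 43 peaks above 100, which is 18.6%. Its strong peaks lay in sets apart from each other, the last of them holding the highest-scoring peak. On the side of the telomere, peaks of score 185.09, 141.04, 123.7 and 128.18 lay between 5990455 and 6140744, with only weaker peaks, of 50.36 to 73.72, among them. After 187 kb between midpoints came 132.42 at 6325152 to 6329705 and 252.09 at 6418897 to 6422048.

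On the centromere side of 6422048 no peak passed 100 until 6970021, although 12 peaks of 55.47 to 99.46 lay between. The other 19 peaks of the stretch scored from 50.36 to 99.46. The median score was 74.79 over the 27 peaks and 66.84 over the other 267 of the arm, a difference that holds the choice of the stretch by its high scores and is given as a description. Without the stretch, 13.1% of the remaining 2L peaks scored above 100.

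**Figure D3:**
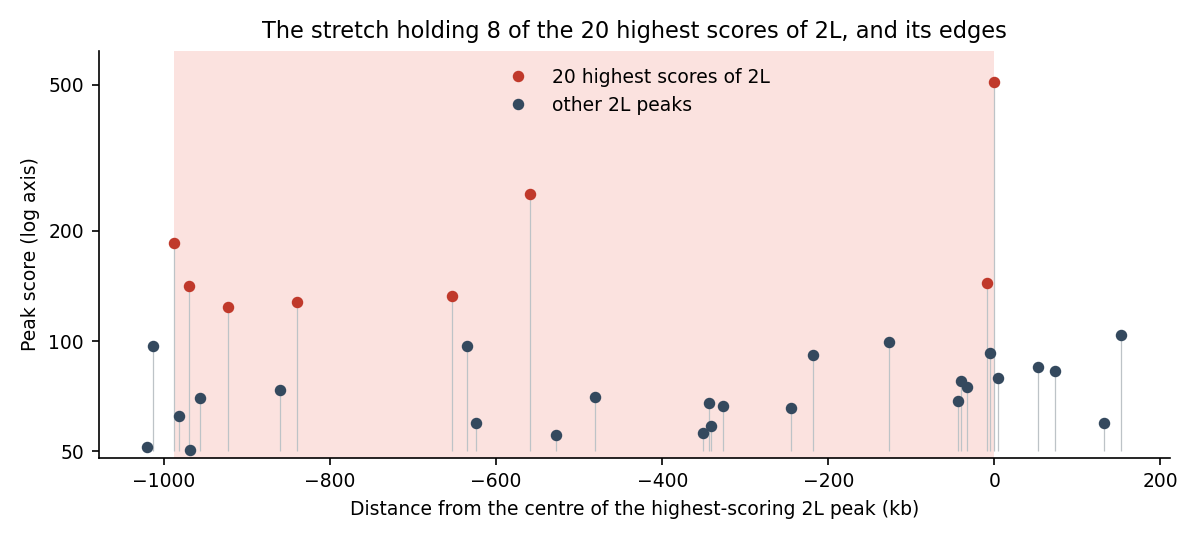
Points give the score (log axis) of each peak by its distance in kb from the centre of the highest-scoring 2L peak, with red for the 20 highest scores of the arm and shading for the 993 kb stretch. Of the red points, 6 lie more than 500 kb from the highest peak. The remaining pair is that peak and one within 10 kb of it. The 12 peaks between the nearest of the 6 and this pair all scored below 100.

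Peaks of disco stood farther apart on 2L than the list as a whole, in the sense that fewer had a close neighbour. Another midpoint within 10 kb was found for 98 of the 294 peaks, or 33.3% (28.2 to 38.9%). Over the 5 large arms it was 41.6%. The other arms gave 39.8% (X, 33.8 to 46.0%), 42.4% (3R, 37.7 to 47.2%), 43.2% (3L, 38.3 to 48.2%) and 46.8% (2R, 41.9 to 51.9%). The interval of 2L did not reach that of 2R and overlapped those of X, 3R and, narrowly, 3L. Peaks with a neighbour come at least in pairs, so these intervals are too narrow. Peaks per Mb also differed between the arms (13.1 on 2L, 11.6 on the X, 15.2 to 18.4 elsewhere), and their part in these shares was not tested.

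The median distance between neighbouring midpoints, 31.9 kb (26.1 to 40.1 kb), was close to the 27.9 to 35.9 kb of the other arms. What differed was the short end: the lower quartile was 12.6 kb on 2L and 9.02 to 11.6 kb elsewhere, and the shortest 10% of distances ended at 5.49 kb against 4.16 to 4.61 kb. Gaps under 1 kb between peak edges occurred 12 times on 2L and 12 times on the X, against 22 to 24 times on 2R, 3L and 3R. These are counts and not shares. Arm 2L and the X also had the fewest peaks, so the counts alone do not show that such gaps were rarer per peak on 2L. Whether the caller split or joined intervals at these gaps was not tested.

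Chaining midpoints within 10 kb joined the 98 peaks into 32 pairs, 6 groups of 3 and 4 groups of 4, and left 196 alone. The 4 groups of 4 were each 15.0 to 21.9 kb long. The one around the highest-scoring peak is described above. The others lay at 4474188 to 4495262 with a highest score of 106.76, at 13286690 to 13307728 with 86.42, and at 13390012 to 13411886 with 96.19. The window from 13 to 14 Mb, which holds the last pair of these groups, counted 20 peaks of which none passed 100. Of the groups of 3, the one at 10732613 to 10744111 held 1 of the 20 highest scores, 128.84, beside 66.84 and 59.82.

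Grouped peaks had a slightly lower median score, and the difference was not tested. It was 66.43 over the 98 peaks with a neighbour within 10 kb and 69.72 over the 196 single ones. Both lie inside the interval of the arm's median, 64.69 to 70.63. A score above 100 was reached by 12 of the 98 and by 31 of the 196, beside 14.6% of all 2L peaks and 18.9% over the 5 large arms. The median widths were 1588.5 and 1496 bp. On 3L alone among the 5 arms was the median score of the grouped peaks the higher one, at 70.86 against 64.65. In 22 of the 42 groups of 2L the highest-scoring member was also the widest. Among the 32 pairs this was so in 17, close to an even split.

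Long stretches without a peak took up much of the arm. Gaps over 200 kb between peak edges numbered 33 on 2L and summed to 10.8 Mb, or 48.1% of its span. On the X they took 54.1%, on 3R 39.4%, on 3L 31.0% and on 2R 25.9%. The longest on 2L, 754 kb, ran from 17374185 to 18128304. The third longest, 461 kb from 16911430 to 17372639, lay directly beside it, and the single peak between them, at 17372640 to 17374184, scored only 53.95. From 16911430 to 18128304, over 1217 kb, 2L therefore held 1 weak peak.

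The second longest gap, 513 kb from 7305427 to 7818730, followed soon after the stretch of high scores, and the next in length were 460 kb from 12700832 to 13160711 and 432 kb from 14605133 to 15036697. Peaks at the edges of the 5 longest gaps scored low, from 50.09 to 58.91, apart from one of 76.42 at the lower edge of the shortest of them. The next 5 gaps, of 378 to 427 kb, had edges of 51.55 to 142.51. A stretch without a peak may be one where reads were too few to be called or could not be aligned, and this was not tested.

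In 21 whole windows of 1 Mb the number of 2L peaks had a median of 12, with quartiles of 9 and 15. The mean was 12.9 ± 6.26 (SD over 21 windows). The densest windows were 6 to 7 Mb with 26 peaks, 19 to 20 Mb with 24 and 5 to 6 Mb with 23. The sparsest were 17 to 18 Mb with 1, and 16 to 17 Mb and 20 to 21 Mb with 7 each. The windows from 19 to 20 Mb and 20 to 21 Mb, with 24 and 7 peaks, sat side by side.

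On 2L the counts per window had a variance of 3.04 times the mean, the most of the 5 arms, where the others gave 1.88 (2R) to 2.74 (3L). The 4 densest windows held 34.3% (28.9 to 40.2%) of the 271 peaks in whole windows, against 29.3 to 32.5% in the 4 or 5 densest windows of the other arms. The differences were not tested, and the intervals overlapped.

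High scores followed the dense windows only in part. The window from 6 to 7 Mb held 7 of the 20 highest scores, and the windows from 19 to 20 Mb and from 2 to 3 Mb held 3 each, the latter with only 12 peaks in all. The window from 19 to 20 Mb contains the peaks of 303.07, 159.58 and 138.57, and with 24 peaks it had 6 above 100. Scores above 100 occurred in 14 of the 21 windows and any of the 20 highest in 8. The 2 windows from 5 to 7 Mb held 49 peaks, among them 12 of the 43 above 100. In the windows from 1 to 2 Mb and 13 to 14 Mb, with 15 and 20 peaks, none passed 100.

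**Figure D4:**
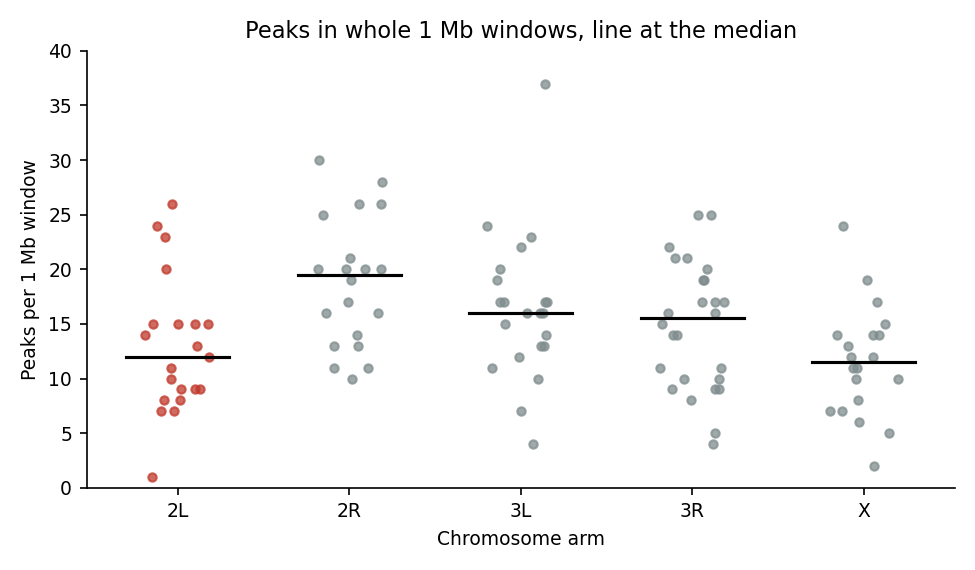
Each point is a whole 1 Mb window of a large arm, with the number of disco peaks in it on the vertical axis and a black line at the arm's median. The windows of 2L (red) run from 1 to 26 peaks around a median of 12, with 4 windows at 20 or more.

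From the telomere to the centromere, 5 parts of 4.49 Mb each held 69, 74, 53, 36 and 62 peaks of 2L. Peaks above 100 numbered 13, 16, 5, 2 and 7, beside a share of 14.6% over all of 2L and 18.9% over the 5 large arms. The median scores were 71.61, 70.09, 64.69, 64.49 and 65.1. Thus the pair of parts nearest to the telomere held more peaks and more high scores than the 3 others, though the part nearest to the centromere contains the peak of 303.07. These are counts in 1 list, and no test was made. The part with 16 peaks above 100 contains the 993 kb stretch, which holds 8 of them. The other arms were not divided in this way.

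Wider peaks of 2L scored higher. Spearman's rho between score and width was 0.39 over the 294 peaks, and 0.36 to 0.40 on the other arms. Both values come from the same peak calls, so this describes the list. The median score rose from 57.74 in the narrowest 59 peaks, up to 998 bp wide, to 76.52 in the widest 59, from 2427 bp. None of the narrowest 59 scored above 100, and 17 of the widest 59 did. Of the 20 highest scores, 17 were wider than the median 2L peak and 7 were among the 20 widest.

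The widest after the highest-scoring peak were 5765 bp at 2979540 to 2985304 (score 140.23), 5034 bp at 19577579 to 19582612 (120.72), 4943 bp at 19166658 to 19171600 (303.07) and 4574 bp at 5051521 to 5056094 (103.49). All 5 widest therefore passed 100. Width was no guarantee of a high score, however. The peak at 19448250 to 19452354 was 4105 bp wide, at place 9 of the arm by width, and scored 50.92, close to the lowest score. It was picked after its values had been seen.

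At the other extreme, the peaks at 14338310 to 14339637 and 6139471 to 6140744 reached 158.01 and 128.18 with only 1328 and 1274 bp. The 5 narrowest peaks were 598 to 735 bp wide and scored 53.68 to 60.27. They lay at 10496257 to 10496854, 1744557 to 1745221, 7111946 to 7112615, 13411186 to 13411886 and 4796982 to 4797716. The first of these is the narrowest on any large arm.

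The lowest scores were 50.09 at 16910632 to 16911429, 50.16 at 55874 to 56670 and 50.18 at 5102781 to 5103534, each 754 to 798 bp wide. The first of these is the lowest of the whole list and lies at the edge of the emptiest part of the arm.

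**Figure D5:**
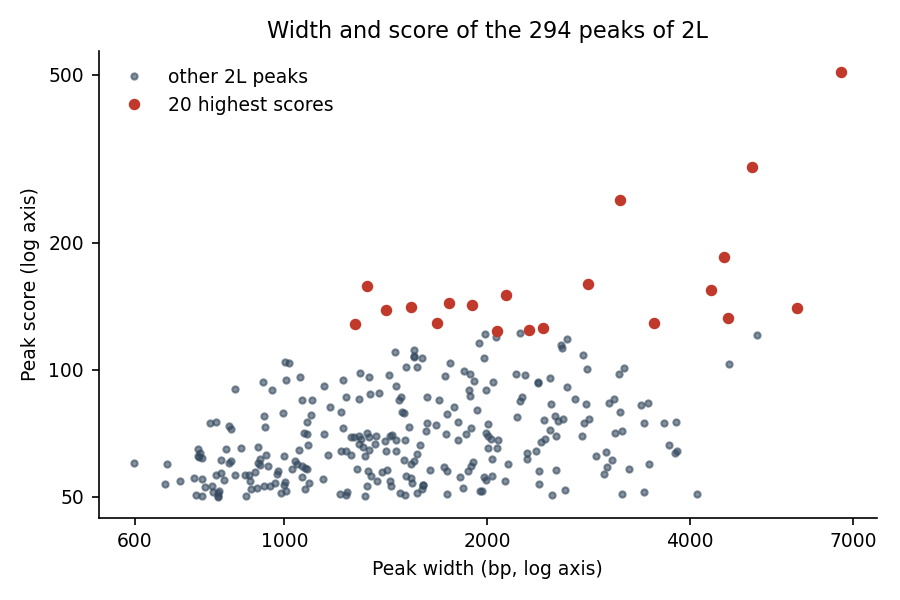
Points give the width in bp and the score (both log axes) of each of the 294 peaks of 2L, with red for the 20 highest scores. Scores rise with width on the whole, but wide peaks near 50 and narrow ones above 120 are present, and the highest-scoring peak is the widest.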

How the data were processed

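Disco ChIP chromatin of Drosophila embryos was sequenced on an Illumina Genome Analyzer, per the labels. Reads were aligned with Bowtie to BDGP5, per the submitters' processing notes, and MACS made the peak calls, per the file headers. Which versions and threshold were used, how the input was used and whether replicates were pooled is not given in the sources used here. The deposited score of each peak is the authors' value, and its scale is not named. If it measures significance, it grows with depth as well as with enrichment.

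Starts count from 0 as deposited, and 1 was added. Midpoints gave distances, chained within 10 kb into groups. Peaks were counted in whole 1 Mb windows between the first and last midpoint of an arm. The peaks named are the 20 highest scores, the 5 widest and narrowest, the 3 lowest scores, the neighbours of the 5 highest, the first and last peak, groups of 4, groups of 3 with a top score, the 5 longest gaps and the 3 densest and sparsest windows. The arm and these measures were chosen with earlier results of these data known. The planned comparisons with transcription starts and motifs were not run: the gene table at hand is of Release 6, and no coordinates were moved between releases. Functions were checked on simulated data. Python 3.11.15, numpy 2.4.6, pandas 2.3.3, scipy 1.17.1 and matplotlib 3.10.9 were used.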

Additional observations from a re-analysis of the deposited data

How the results depend on the processing

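Arm 2L kept the lowest share of peaks near another and the highest window variance in the top 50% and the top 25% by score. Both cuts keep every peak above 100. With gaps under 1 kb merged, 2L kept each of these places. At both cuts and after merging, its lowest share above 100 recounts the same 43 peaks and is no further check. After merging, 8 of its 20 highest scores still lay in 1 Mb, the most of any arm. Merging keeps the highest score of the peaks it joins, and it joined none of the 20 to another. So neither merging nor a stricter score limit could change which 2L peaks those were, and for 2L this is no further check. By median width 2L moved from place 3 to place 2 in the top 50% and to place 4 in the top 25% and after merging. By median score it moved from place 3 to place 5 of the arms in the top 50% and the top 25%, and by peaks per Mb from place 4 to 5 in the top 25%. Values moved with the score limit, partly by construction. In the top 50% there were 144 peaks of 2L with a median score of 86.43, a median width of 1856 bp, a median distance of 61.8 kb, 13.2% with a neighbour within 10 kb and a rho of score and width of 0.25. In the top 25% these were 63 peaks, 108.03, 1976 bp, 159 kb, 4.76% and 0.41, the 4 densest windows held 51.7%, and the share of 2L among the large arms was 14.6%. The peaks with a neighbour in the top 25% all lay in the group around the highest-scoring peak. Merging gave 27.3% with a neighbour and a rho of 0.42. For 2L alone, the share with a neighbour was 17.3% at 5 kb, 84.0% at 50 kb and 39.8% for edge gaps up to 10 kb. Its place among the arms there is unknown. Above a score of 80 lay 31.0% of 2L peaks and above 150 lay 2.72%. Over the 5 large arms these shares were 36.01% and 3.96%. Arm 2L was the lowest at both, with the X next at 35.66% and 2.87%, which was not tested. In 2 Mb windows the densest 2 of 10 held 28.5%. Of 38 recomputed values, 16 stayed inside the main interval or within 1.5 times the main count, among them those with other lengths of the stretch of high scores, which were chosen after seeing the data. Comparisons with transcription starts were not run, since no annotation of Release 5 was used. No paired analysis was possible because the title joins both replicates and a single peak list is given, so neither could be left out. The depth is unknown, so thin coverage and a lack of binding cannot be told apart where no peak was called.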
